A study of Mus musculus with 8 samples.

Results

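The genes S100a8, S100a9, Csf3r, Cxcr2, Retnlg and G0s2, which are used to recognise neutrophils, were followed across the cells of mouse Hepa1-6 tumours. They are 6 of the 2000 genes of a table that holds 53528 cells, and they were picked by name for their known role in neutrophils. Hepa1-6 is a mouse hepatoma cell line. Tumours were dissociated and single cells were sequenced with the droplet-based DNBelab C4 platform, which counts unique molecular identifiers (UMIs) at the 3′ ends of transcripts. The labels describe 4 groups, tumours of WT or Soat1-edited cells in animals given intraperitoneal PBS or PD1 antibody. The titles name the edited cells KO and the genotype field names them Soat1 knockdown, and Soat1 encodes an enzyme that esterifies cholesterol. The labels do not say how many animals, clones or pooled tumours stand behind a group, nor the strain or age of the animals.

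The last digit of each cell's name, 1 to 6, splits the table into 6 cell sets of 7569 to 11813 cells. No label ties a set to a group, so genotypes and treatments were not compared, the table was treated as 1 sample, and each set is given as an unassigned sample. Values are natural logs. For the 9370 cells of set 1 a value is the natural log of 1 plus UMIs per 10000 UMIs of the cell, so that counts could be recovered. Those cells held 1001 to 261833 UMIs with a median of 11098. Each cell of the other 5 sets had some values below 0, so UMIs are not given there and values stay on the deposited scale. All intervals are 95% intervals for counting error alone, and no p-value was computed because cells of 1 sample are not replicates.

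Neutrophils are short-lived granulocytes made in the bone marrow under the growth factor G-CSF and drawn into tissue by chemokines that bind CXCR2. S100A8 and S100A9 form calprotectin, a zinc- and calcium-binding complex that fills much of the neutrophil cytosol and acts as an alarm signal when released. Csf3r encodes the receptor of G-CSF and Cxcr2 the chemokine receptor. Retnlg encodes a secreted resistin-like protein of neutrophils, and G0s2 encodes an inhibitor of the triglyceride lipase ATGL. During maturation neutrophils make granule proteins early, in the marrow, and gain Cxcr2 late.

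The stretches before the starts of the calprotectin genes and of both receptors are shown because C/EBP factors and PU.1 are textbook regulators of granulocyte genes. These 4 genes were highest in the same class of cells, as Retnlg and G0s2 were, but not always in the same single cells. Each is the 250 bases before the gene's start on the gene's own strand, from RefSeq on GRCm38.p6. Capitals mark every match to the C/EBP consensus TTNNGNAA, to the PU.1 core GAGGAA or to the TATA box TATAAA, on either strand.

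S100a8, chr3:90668821-90669070, plus strand: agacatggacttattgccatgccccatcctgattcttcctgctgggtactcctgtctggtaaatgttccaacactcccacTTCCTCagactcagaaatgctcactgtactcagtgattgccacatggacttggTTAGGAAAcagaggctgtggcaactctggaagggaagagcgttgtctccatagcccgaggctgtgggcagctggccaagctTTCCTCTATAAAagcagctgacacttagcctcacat
S100a9, chr3:90695722-90695971, minus strand: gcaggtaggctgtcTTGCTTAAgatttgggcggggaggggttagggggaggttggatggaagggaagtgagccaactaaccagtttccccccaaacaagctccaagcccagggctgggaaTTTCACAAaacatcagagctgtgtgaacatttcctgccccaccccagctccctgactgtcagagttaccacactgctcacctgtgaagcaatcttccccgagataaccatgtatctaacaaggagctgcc
Csf3r, chr4:126024409-126024658, plus strand: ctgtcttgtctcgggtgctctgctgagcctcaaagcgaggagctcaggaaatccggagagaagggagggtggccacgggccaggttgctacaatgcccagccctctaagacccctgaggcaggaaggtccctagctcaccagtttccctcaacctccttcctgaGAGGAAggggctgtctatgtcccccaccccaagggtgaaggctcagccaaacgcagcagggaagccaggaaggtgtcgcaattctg
Cxcr2, chr1:74153744-74153993, plus strand: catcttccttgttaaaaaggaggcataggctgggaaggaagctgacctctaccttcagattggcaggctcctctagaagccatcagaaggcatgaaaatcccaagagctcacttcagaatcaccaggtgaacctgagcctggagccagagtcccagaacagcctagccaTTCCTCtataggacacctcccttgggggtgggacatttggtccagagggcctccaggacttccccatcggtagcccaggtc

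S100a8 held 1 C/EBP match that began 117 bases before the start, PU.1 core matches at 170 and 36 bases, and a TATA box at 30 bases that directly follows the second PU.1 core. S100a9 held 2 C/EBP matches, at 236 and 130 bases, and none of the other motifs. Csf3r and Cxcr2 each held 1 PU.1 core, at 86 and 81 bases. Retnlg held 1 C/EBP match at 246 bases and G0s2 held no match to any of the 3 motifs. Of 32807 such windows in the RefSeq table, 36.8% held the C/EBP consensus, 23.3% the PU.1 core and 12.4% the TATA box. These matches are letters in a window, and binding was not measured.

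Myeloid cells were taken as the 5498 cells whose mean value of Tyrobp and Fcer1g, adaptors of activating receptors, was at least 0.8. They were clustered without the 6 genes and without the gate genes, and clusters were named from marker lists that also left the 6 genes out. A single cluster of 287 cells was neutrophil-like, and 17 of its 18 neutrophil markers in the table were raised by more than 0.1. Hdc, the histamine-forming enzyme, led it by fold, followed by Il1f9, Slfn4 and Acod1. The remaining gated cells, and all ungated cells, took their class from a clustering of all cells. Of the remaining gated cells 37.8% were macrophage-like, 35% monocyte-like and 7.35% dendritic-like. A further 8.67% were NK-like and 5.97% T-like, so the gate also takes cells that are not myeloid.

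Neutrophil-like cells were 5.22% of all gated cells (287 of 5498, Clopper-Pearson interval 4.65 to 5.84). In sets 1 to 6 they numbered 49 of 673, 50 of 766, 11 of 859, 107 of 1316, 34 of 611 and 36 of 1273. The shares were 7.28%, 6.53%, 1.28%, 8.13%, 5.57% and 2.83%. Set 3 had the lowest share of gated cells and set 4 the highest, and set 3 rests on 11 cells.

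The gate passed through the middle of this cell class. When all 53528 cells were clustered, again without the 6 genes, a neutrophil-like cluster of 597 cells appeared, and 313 of them were gated. It held 286 of the 287 gated neutrophil-like cells and 27 gated cells that stay with the other gated cells here. With its 284 ungated cells the class came to 571 cells, or 1.07% of all cells (interval 0.981 to 1.16), of which 50.3% were taken by the gate. The median gate value of the class was 0.814, close to the threshold. The part of the class that the gate took differed between sets, from 34.4% in set 3 to 58.6% in set 5. As a share of all cells the class was 1.05%, 1.28%, 0.271%, 2.51%, 0.714% and 1.02% in sets 1 to 6. Set 3 stayed lowest and set 4 highest, while sets 1 and 2, and sets 5 and 6, changed places. Results are given for gated cells, and for gated and ungated cells together where stated.

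The 6 genes were each higher in neutrophil-like than in other gated cells in all 6 sets, against 7.55% of the 2000 genes. All but Retnlg were higher by more than 1 on the deposited scale in every set, which 1% of the 2000 genes were. S100a9 ranked 1 or 2 among the 2000 genes by this difference in each set, S100a8 3 to 7, G0s2 4 to 6, Csf3r 9 to 14, Cxcr2 6 to 22 and Retnlg 33 to 92. The cells were clustered on other genes that vary with these 6, so the counts describe the class and test nothing.

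**Figure D1:**
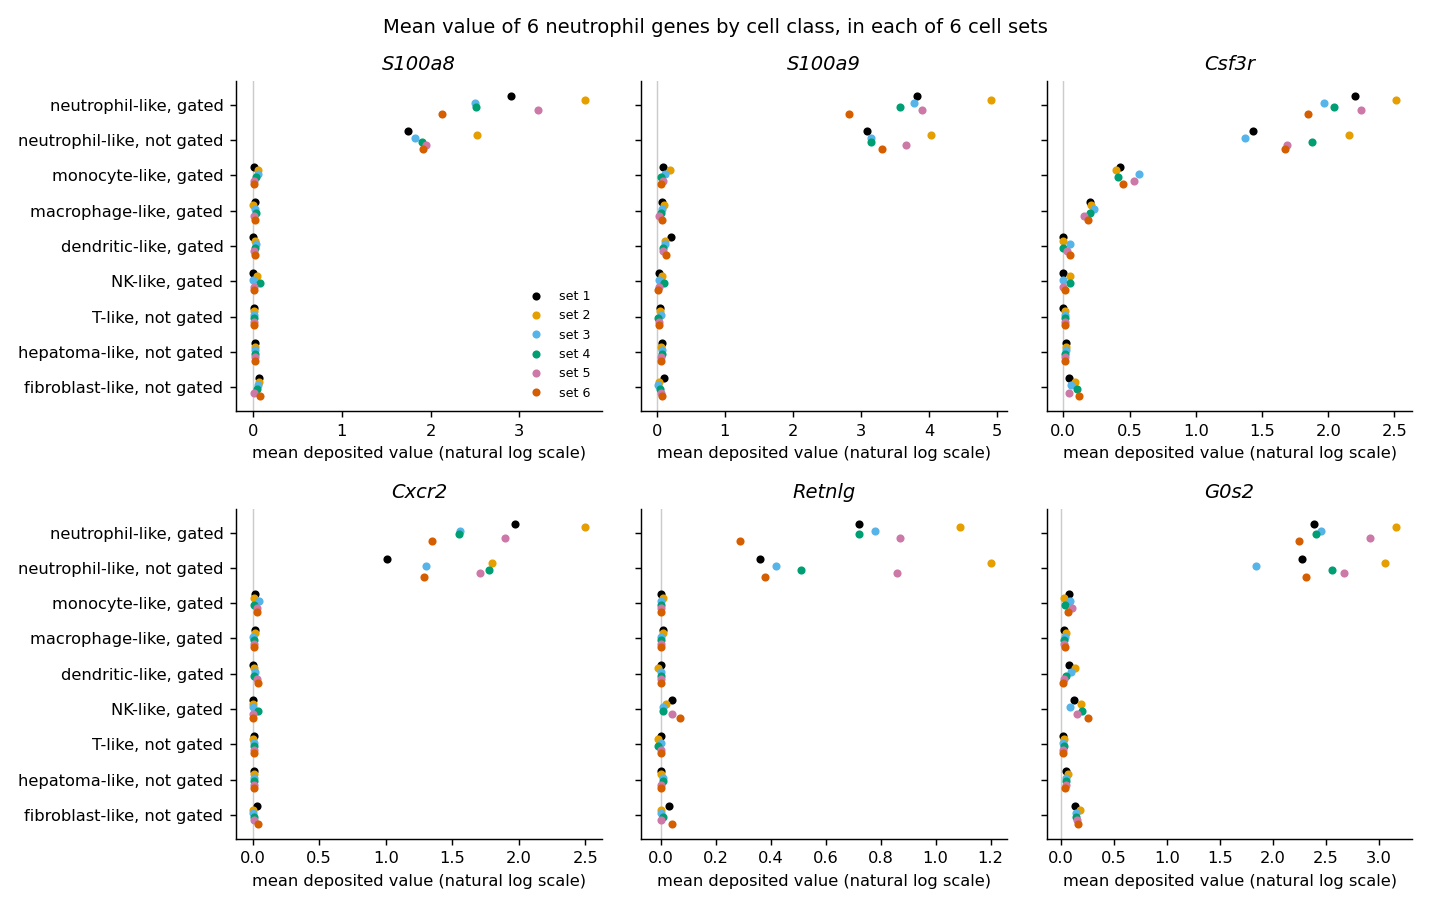
Mean deposited value (natural log scale, x axis) of each gene in 9 cell classes (y axis), with a point for each of the 6 cell sets. All 6 genes had their highest value in neutrophil-like cells in every set, Csf3r was also above the other classes in monocyte-like and macrophage-like cells, and Retnlg had the lowest values.

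By summed UMIs of gated neutrophil-like cells in set 1 the calprotectin genes were the most abundant of the 6. By mean value over cells, G0s2 was above S100a8 in gated cells of set 6 and in ungated neutrophil-like cells of all 6 sets. The mean value of S100a9 in gated neutrophil-like cells of sets 1 to 6 was 3.82, 4.90, 3.78, 3.57, 3.89 and 2.83, and in other gated cells it ranged from 0.08 to 0.14 over the sets. The mean value of S100a8 in the same order was 2.90, 3.74, 2.5, 2.51, 3.21 and 2.13, against 0.03 to 0.05. Both genes were highest in set 2 and lowest in set 6. In the counts of set 1, S100a9 was at 33201 CPM (UMIs scaled to a total of 1000000; interval 31900 to 34541) in 49 neutrophil-like cells and S100a8 at 13210 CPM (12394 to 14065). In 615 other gated cells S100a9 was at 603 CPM and S100a8 at 323 CPM.

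Most of those UMIs in other gated cells came from 1 cell. Set 1 had 4 cells with at least 10 UMIs of the secondary granule genes Camp, Ngp and Ltf, which encode the antimicrobial proteins cathelicidin, neutrophilic granule protein and lactoferrin. This group was defined after its values were seen. One of them, with 16038 UMIs, passed the gate but was placed in another cluster of gated cells, and it held 97.9% of the S100a8 UMIs and 95.5% of the S100a9 UMIs of the other gated cells. In the clustering of all cells it fell among the neutrophil-like cells, as the other granule-rich cells did. Without the granule-rich cells, S100a9 was at 22455 CPM in 47 neutrophil-like cells and at 27.5 CPM in other gated cells, and S100a8 at 7202 and 6.67 CPM.

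On these counts S100a8 was 1079-fold higher in neutrophil-like cells (interval 667 to 1868) and S100a9 817-fold higher (643 to 1054). The UMIs were uneven over the 47 neutrophil-like cells. For each gene the 5 highest cells held 56% of S100a8 UMIs and 51.5% of S100a9 UMIs. The median cell had 4 and 11 UMIs of these genes. With the granule-rich cells kept, the ratios were 40.9 (37.2 to 44.9) and 55 (51.6 to 58.7). At least 2-fold higher levels were found for 17.7% of 1507 genes with 3 or more UMIs, and for all 6 of these genes. The median log2 ratio of the 6 was 6.67 with the granule-rich cells and 8.59 without them, against -1.15 and -1.36 over all genes tested.

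Csf3r was at 1597 CPM in gated neutrophil-like cells of set 1 (118 UMIs, interval 1322 to 1913) and at 52.3 CPM in other gated cells, a 30.5-fold ratio (23.6 to 39.4). This was the smallest ratio of the 6 genes. Its mean values in sets 1 to 6 were 2.20, 2.51, 1.97, 2.04, 2.25 and 1.85. Other myeloid classes also held Csf3r: monocyte-like cells had 0.43, 0.40, 0.57, 0.41, 0.53 and 0.45, and macrophage-like cells 0.20, 0.21, 0.23, 0.20, 0.16 and 0.19. The gated neutrophil-like, monocyte-like and macrophage-like cells did not overlap over the sets, while gated dendritic-like and NK-like cells lay between -0.00 and 0.05. Outside the gate, monocyte-like cells had 0.32, 0.06, 0.22, 0.13, 0.21 and 0.29, which overlap the 0.13 to 0.17 of ungated macrophage-like cells.

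The counts of set 1 gave the same order for Csf3r in gated cells. Monocyte-like cells had 69 UMIs, or 120 CPM (93.5 to 152), in 26.3% of 167 cells. Macrophage-like cells had 62 UMIs, or 45.5 CPM (34.9 to 58.3), in 15% of 321 cells. Dendritic-like cells had 0 UMIs, which allows up to 14.6 CPM at 3 UMIs, and T-like cells were at 1.35 CPM. For each 100 UMIs of S100a9 there were 575 of Csf3r in monocyte-like cells (309 to 1166) and 258 in macrophage-like cells (159 to 433), against 8.12 in gated neutrophil-like cells without the granule-rich ones (6.67 to 9.80).

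Cxcr2 was narrower. It had 94 UMIs in gated neutrophil-like cells of set 1, or 1272 CPM (1028 to 1557), and 11 UMIs, or 4.29 CPM, in other gated cells. The ratio was 296 (158 to 614), and 407 (205 to 917) without the granule-rich cells. Its mean values in sets 1 to 6 were 1.97, 2.5, 1.56, 1.55, 1.90 and 1.35, and no other named gated class of myeloid or NK-like cells exceeded 0.05 in any set. Ungated monocyte-like cells, few in set 1 (56 cells), had 15 UMIs of Cxcr2, 15 of G0s2 and 20 of S100a9, with mean Cxcr2 values of 0.04 to 0.22 over the sets.

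G0s2 was at 3817 CPM (282 UMIs, 3384 to 4289) in gated neutrophil-like cells of set 1 and at 19.1 CPM in other gated cells, a ratio of 200 (147 to 276). Its mean values in sets 1 to 6 were 2.39, 3.16, 2.45, 2.41, 2.92 and 2.25. Low values also appeared outside neutrophils. NK-like cells had 0.12, 0.19, 0.08, 0.20, 0.15 and 0.25, and fibroblast-like cells 0.13, 0.18, 0.14, 0.14, 0.15 and 0.16, whereas T-like cells stayed at 0.02 to 0.03. In set 1 the NK-like value rested on 3 UMIs. Ungated monocyte-like cells had 0.31, 0.13, 0.10, -0.01, 0.07 and 0.10, highest in set 1, and gated dendritic-like cells lay between 0.02 and 0.13.

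Retnlg was the least widespread. Its 78 UMIs in gated neutrophil-like cells of set 1 gave 1056 CPM (835 to 1318), but they lay in 10 of 49 cells, and 83.3% of them in the 5 highest cells. Other gated cells had 5 UMIs, or 1.95 CPM, a ratio of 541 (222 to 1713). The mean values in sets 1 to 6 were 0.72, 1.09, 0.78, 0.72, 0.87 and 0.29. Set 6 had the lowest mean in gated cells. The share of gated cells at a value of at least 1 was 20.4%, 52%, 27.3%, 33.6%, 23.5% and 25%, where set 6 was not lowest. In ungated neutrophil-like cells set 2 stood highest by mean at 1.2 with the rest from 0.36 to 0.86.

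**Figure D2:**
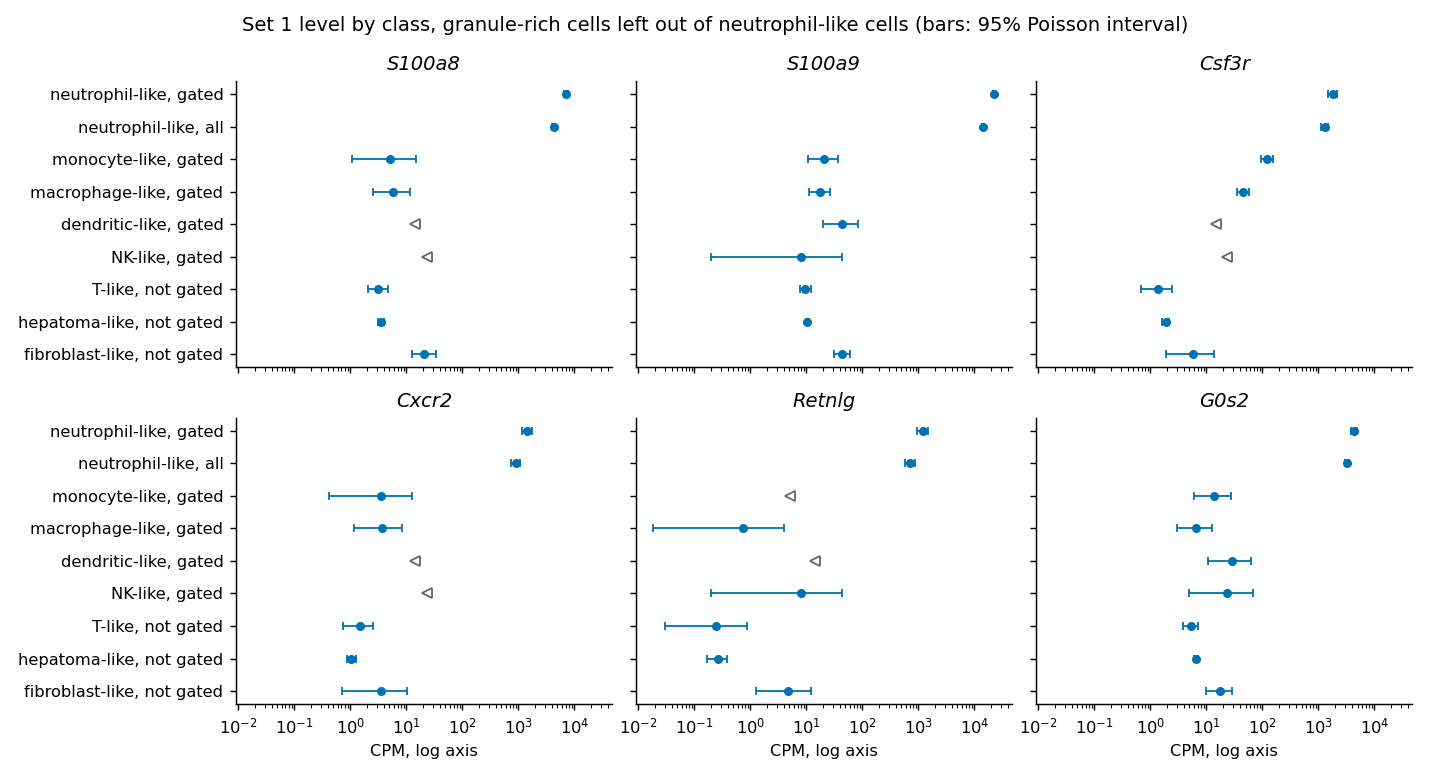
Level in set 1 as CPM (log x axis) in 9 classes (y axis), with granule-rich cells left out of the neutrophil-like cells and bars for the exact 95% Poisson interval. Open triangles mark classes with 0 UMIs at the level that 3 UMIs would give. Csf3r alone has a stepwise order, with monocyte-like cells at 120 CPM and macrophage-like cells at 45.5 CPM.

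Cells that the gate took had more of each gene than ungated neutrophil-like cells of set 1, at similar median depths of 1225 and 1285 UMIs. The ratios were 2.83 for S100a8 (2.52 to 3.17), 2.42 for S100a9 (2.26 to 2.59), 1.82 for Csf3r (1.36 to 2.45), 2.65 for Cxcr2 (1.84 to 3.86), 3.19 for Retnlg (2.08 to 5) and 1.70 for G0s2 (1.42 to 2.04). At least 2-fold was reached by 4 of the 6 genes, against 21.7% of 768 genes tested. The median log2 ratio of the 6 was 1.34, against -0.12 over the genes tested. The order was not the same in every set: G0s2, for example, had means of 2.41 in gated and 2.56 in ungated cells of set 4. In all 98 neutrophil-like cells of set 1, gated and ungated, the level of each gene was below that of gated cells. S100a9 was at 22330 CPM there, S100a8 at 8439, G0s2 at 2938, Csf3r at 1194, Cxcr2 at 830 and Retnlg at 651.

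Neutrophil-like cells were shallow, and UMIs of hepatoma marker genes were seen in them. Their median of 1225 UMIs compares with 2767 for gated macrophage-like cells and 22371 for hepatoma-like cells. The 10 hepatoma markers in the table summed to 2748 CPM in gated neutrophil-like cells, where 4 of them were at 0, to 1776 CPM in macrophage-like cells and to 1060 CPM in T-like cells. Afp, the fetal albumin-like protein of hepatoma cells, was found in 67.3% of gated neutrophil-like cells. Of 9 macrophage markers 4 were at 0 and their sum was 799 CPM, against 9163 CPM in macrophage-like cells. C1qa had 2 UMIs, but Spp1 was at 528 CPM and Gpnmb at 217 CPM, above the 205 and 120 CPM of macrophage-like cells. The share of cells with a UMI went the other way. It was 10.2% against 26.5% for Spp1 and 14.3% against 20.9% for Gpnmb. The 7 monocyte markers summed to 1299 CPM, with 2 of them at 0, against 994 CPM in macrophage-like cells. Of the 96 UMIs in that sum 45 were of Chil3, which is also a secondary granule gene. Without the granule-rich cells 4 UMIs of Chil3 remained. Fn1 was found in 40.8% of gated neutrophil-like cells. All 6 mast cell or basophil markers were at 0. The part of RNA from other cells in the levels of the 6 genes was not tested.

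In the granule-rich cells of set 1, calprotectin was high and Csf3r was not found. Their S100a8 UMIs were 248, 196, 811 and 314, and their S100a9 UMIs 579, 428, 1476 and 572, so that both genes together made up 16.2%, 16.3%, 14.3% and 16.6% of the cell. Csf3r had 0 UMIs in all 4 cells, although these held 3839 to 16038 UMIs each. Cxcr2 had 0, 0, 2 and 1 UMIs, Retnlg 0, 0, 1 and 0, and G0s2 0, 0, 8 and 0. In the 95 other neutrophil-like cells of set 1, S100a8 and S100a9 made up a median of 0.666% of the UMIs and at most 16.7%, and 1 of these cells reached the range of the granule-rich ones. Csf3r was found in 61 of the 95.

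Camp, Ngp and Ltf define the granule-rich cells, so their fall without these cells follows from the definition. Camp had 485 UMIs in gated neutrophil-like cells and 0 in the 47 that remained without them. Ngp went from 106 to 3 UMIs and Ltf from 60 to 3. Secondary granule genes outside the definition fell as well. Chil3 went from 45 to 4 UMIs, Lcn2 from 42 to 4, Cd177 from 16 to 6 and Fcnb from 11 to 0. The tertiary granule genes Mmp9, Arg2 and Mmp8 had 39, 17 and 7 UMIs with or without these cells. In the other sets 7 cells had a mean value of Camp, Ngp and Ltf of at least 1, numbering 2, 2, 1, 0 and 2 in sets 2 to 6, and 5 of these were neutrophil-like in either clustering. Of these 5, 4 had a mean of at least 4.57, with S100a8 values of 5.85 to 6.18 and S100a9 values of 6.67 to 7.39. Their Csf3r values were -0.10 and 1.11 in set 3 and -0.26 and 1.5 in set 6, so Csf3r was near 0 in 2 of the 4 cells and above 1 in the others. Cxcr2 in the same order was 1.45, 2.09, 1.08 and 1.08, and G0s2 was 1.61, 3.13, 1.51 and 2.42, so both were above 1 in all 4. The fifth cell, of set 4, had 2.40 for Csf3r, 4.04 for Cxcr2, 5.64 for Retnlg and 5.37 for G0s2.

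**Figure D3:**
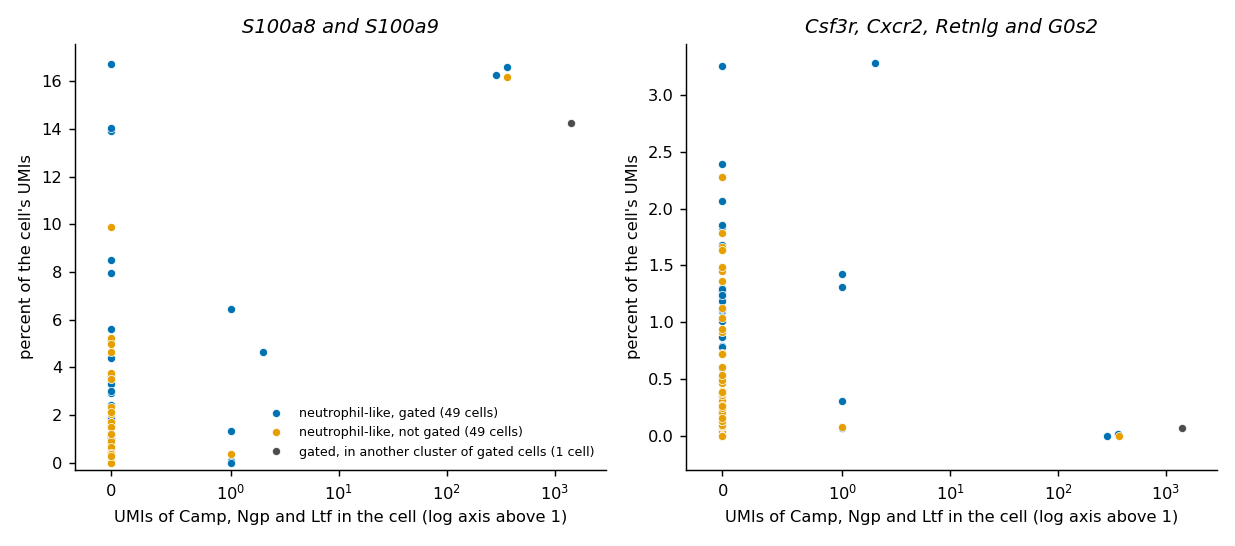
Each point is a neutrophil-like or granule-rich cell of set 1: the x axis gives its UMIs of Camp, Ngp and Ltf (log axis above 1), and the y axes the percent of its UMIs in S100a8 and S100a9 (left) and in Csf3r, Cxcr2, Retnlg and G0s2 (right). The 4 cells at the right hold 14.3% to 16.6% calprotectin UMIs and lie at or near 0 for the other genes.

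Combinations of the other 4 genes were counted in each cell as at least 1 UMI of Csf3r, Cxcr2, Retnlg and G0s2. Among the 95 neutrophil-like cells of set 1 without granule-rich ones, the commonest combination was Csf3r with Cxcr2 and G0s2, in 25 cells or 26.3% (interval 17.8 to 36.4). All 4 genes were found in 12 cells, or 12.6% (6.70 to 21.0), and none in 15 cells, or 15.8% (9.12 to 24.7). Of these 15 cells, 5 had S100a8 or S100a9. Csf3r with G0s2 was found in 9 cells, Csf3r alone in 8, G0s2 alone in 8 and Cxcr2 alone in 3. Retnlg was found alone in no cell.

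In set 1 most cells with Retnlg also had the other genes. Of the 98 neutrophil-like cells, gated and ungated, 17 had Retnlg, and all 17 had G0s2. Of the same cells 16 had S100a8, 16 had S100a9, 14 had Csf3r and 13 had Cxcr2. Over all 98 cells, 64 had G0s2 and 52 had Cxcr2. Cells with more UMIs of every kind are more likely to hold several genes. The 12 cells with all 4 genes had a median of 1463 UMIs, against 1214 in the 15 with none, and the part of depth in these combinations was not tested. With a deposited value of at least 1 as the measure, both receptor genes were high in 12 of 17, 43 of 53, 5 of 9, 47 of 63, 10 of 14 and 11 of 20 Retnlg-high cells of sets 1 to 6, and neither in 2, 1, 2, 4, 1 and 6. In gated cells of set 6 both were high in 4 of 9 and neither in 5.

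Csf3r and Cxcr2 were found together in 59.2% of the 49 gated cells of set 1 (29 cells, 44.2 to 73.0) and in 42.9% of all 98 (32.9 to 53.3). At a deposited value of at least 1, they were both high in 59.2%, 68%, 27.3%, 43.9%, 52.9% and 22.2% of gated neutrophil-like cells of sets 1 to 6. Set 6 was lowest and set 2 highest. All 4 genes were high in 18.4%, 38%, 18.2%, 22.4%, 20.6% and 11.1%. Retnlg was high in 20.4%, 52%, 27.3%, 33.6%, 23.5% and 25%, with set 2 again highest. The sets differ in how their values were changed before deposit, so shares past a fixed value were not tested between them.

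**Figure D4:**
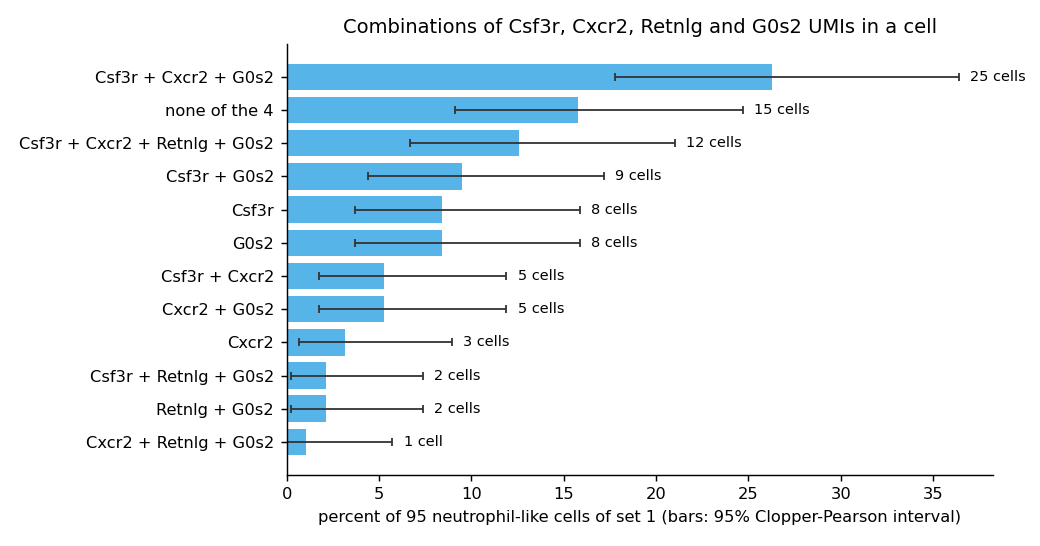
Percent of the 95 neutrophil-like cells of set 1 without granule-rich cells (x axis) that hold each combination of Csf3r, Cxcr2, Retnlg and G0s2 UMIs (y axis), with exact 95% binomial intervals. The combination of Csf3r, Cxcr2 and G0s2 is the commonest at 26.3%, and no cell holds Retnlg alone.

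Among gated neutrophil-like cells, S100a8 and S100a9 were the pair of the 6 that varied together most in each set. The Pearson correlation of their values over cells was 0.81, 0.93, 0.90, 0.89, 0.77 and 0.75 in sets 1 to 6. S100a8 with Retnlg had 0.33 to 0.61 and S100a9 with G0s2 0.31 to 0.68. S100a8 with Csf3r ranged from -0.29 to 0.47 and Csf3r with Cxcr2 from -0.01 to 0.65. The cells of a set share its processing and differ in depth, and set 3 has 11 cells, so these are descriptions.

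The genes whose values followed the mean of the 6 most closely over 664 gated cells of set 1 were Hdc (r = 0.70), Il1r2 (0.59), Slfn4 (0.59), Acod1 (0.59), Il1f9 (0.57), Mmp9 (0.56), Stfa2l1 (0.48), Mxd1 (0.48), Wfdc21 (0.47) and Clec4d (0.47). Hdc was among the 20 highest in all 5 other sets, with r from 0.46 to 0.78. Il1r2, the interleukin-1 decoy receptor, Slfn4, Il1f9 and the lectin receptor Clec4d were also among the 20 highest in all 5. Mxd1, a repressor of MYC targets, was there in 1. These correlations run across classes that share libraries and differ in depth.

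The chemokines that bind CXCR2 were highest in different classes, and which cells made them was not tested. Cxcl2 was the most abundant in neutrophil-like cells themselves, with 23781 CPM in gated cells of set 1 (22681 to 24919) and UMIs in 93.9% of them. It was at 1925 CPM in monocyte-like, 1154 CPM in macrophage-like and 55 CPM in hepatoma-like cells. Cxcl3 was at 2030 CPM in gated neutrophil-like cells, found in 30.6% of them, and at 215 CPM in hepatoma-like cells, found in 81.8%. Beside other gated cells, 4 of the 6 ligands were at least 2-fold higher in neutrophil-like cells, against 17.7% of all genes tested. For 2 of them, Cxcl2 and Cxcl3, intervals lay wholly above 2-fold, which 7.23% of all genes tested had. Cxcl1 and Cxcl5 rested on 8 and 3 UMIs, with ratio intervals of 0.976 to 4.71 and 0.637 to 10.4. Cxcl1 was found in 4.08% of neutrophil-like cells and in 12% of other gated cells.

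Cxcl1 was at 346 CPM (307 to 387) in fibroblast-like cells, at 186 CPM in hepatoma-like cells and at 108 CPM (46.7 to 213) in gated neutrophil-like cells. Cxcl15 was at 279 CPM (276 to 283) in hepatoma-like cells, at 67.7 CPM (22 to 158) in gated neutrophil-like cells and at 42.3 CPM in fibroblast-like cells. Cxcl5 was at 78.2 CPM (76.4 to 79.9) in hepatoma-like cells and at 40.6 CPM (8.37 to 119) in gated neutrophil-like cells, on 3 UMIs, so those intervals overlap. Ppbp was at 13.7 CPM in hepatoma-like cells and at 0 UMIs in gated neutrophil-like cells, which allows up to 40.6 CPM. Within the clusters of all cells Ppbp was highest at 77.9 CPM, in an unnamed cluster of 142 set 1 cells.

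The ligand of Csf3r was barely found. Csf3, which encodes G-CSF, had 5 UMIs in hepatoma-like cells, 1 in fibroblast-like cells, 2 in unnamed cells and 0 in T-like, gated macrophage-like and gated neutrophil-like cells. In the last class a count of 0 allows up to 40.6 CPM, so the depth there is low. Csf2 was at 10.8 CPM in T-like cells (8.65 to 13.3) and Il6 at 186 CPM in fibroblast-like cells (158 to 217).

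Lists of neutrophil states were then set beside the 6 genes in gated cells of set 1. These genes took part in the clustering and some in the naming, so their counts are descriptions. All 6 measured genes of mature circulating neutrophils were at least 2-fold higher than in other gated cells, against 17.7% of all genes tested, with a median log2 ratio of 3.17. Hdc was 97.8-fold higher (65.1 to 150), Il1r2 17.7-fold (14.0 to 22.3) and Mxd1 9.96-fold (7.34 to 13.3). Of 13 measured genes tied to neutrophils that have stayed in tumours, 12 were at least 2-fold higher (background 17.7%), with a median of 3.04. The inflammatory cytokine Il1b was at 11464 CPM, 8.25-fold higher (7.64 to 8.89), and Ptgs2, the inducible prostaglandin synthase, was 11.4-fold higher (9.93 to 13).

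Tertiary granule genes were all 3 higher, with Mmp9, gelatinase B, at 528 CPM and 11.3-fold (7.65 to 16.3). All 7 secondary granule genes were at least 2-fold higher with the granule-rich cells, against 17.7% of all genes tested. Without those cells 5 of 6 tested were (background 17.6%), and 3 had intervals wholly above 2-fold (background 6.52%). Interferon response genes were mixed: 3 of 7 were at least 2-fold higher and 1 was at least 2-fold lower, where 55% of all genes tested were lower, with a median log2 ratio of 0.77. Isg15 was 2.16-fold higher (1.61 to 2.85), and Ifitm3 had a ratio of 0.890 (0.621 to 1.24). Cd36, a receptor for lipids and for S100A8 with S100A9, had 0 UMIs in neutrophil-like cells, which allows up to 40.6 CPM, and 107 CPM in other gated cells.

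UMIs of the 6 genes were found at low levels in T-like and hepatoma-like cells outside the gate. In 1307 T-like cells of set 1, S100a9 was at 9.69 CPM (7.67 to 12.1) and S100a8 at 3.19 CPM (2.08 to 4.67). In 3527 hepatoma-like cells S100a9 was at 10.4 CPM (9.78 to 11.1) and S100a8 at 3.56 CPM (3.20 to 3.96). The levels of both genes in the 2 classes overlapped within their intervals. G0s2, at 5.27 and 6.53 CPM in T-like and hepatoma-like cells, lay between S100a8 and S100a9. The other genes were below S100a8 in both classes, with Csf3r at 1.35 and 1.88, Cxcr2 at 1.47 and 1.06, and Retnlg at 0.245 and 0.264. Mean values of the 6 genes over the sets reached at most 0.07 in T-like and 0.08 in hepatoma-like cells.

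The share of cells with a calprotectin UMI differed far more than the level, and depth differed with it. An S100a8 or S100a9 UMI was found in 6.89% of T-like cells (5.57 to 8.40; median 4570 UMIs) and in 24.5% of hepatoma-like cells (23.1 to 25.9; median 22371 UMIs). With every cell thinned down to 1000 UMIs, the shares became 1.30% (0.760 to 2.07) and 1.59% (1.2 to 2.06). Thinned shares in gated monocyte-like, macrophage-like and ungated fibroblast-like cells were 2.40%, 2.80% and 3.16%, against 75.8% in the 95 neutrophil-like cells. Ungated monocyte-like cells had a higher thinned share than these 3 classes, at 10.7% (6 of 56 cells, 4.04 to 21.9). No cell was shallower than the thinned depth. In T-like cells 2 or more of these UMIs were found in 6 cells, at most 7 in one. In fibroblast-like cells S100a9 was at 43.5 CPM, and 29 of its 37 UMIs lay in a single cell.

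Within each of the 2 classes the share also rose with depth. With hepatoma-like cells in 4 equal groups by depth, the share with a calprotectin UMI was 10.5%, 18.2%, 27.0% and 42.2%, at median depths of 8427, 16972, 29006 and 50858 UMIs. The level over the same groups was 32.0, 16.5, 11.2 and 12.1 CPM, so the shallowest group had the highest level. In T-like cells the shares were 3.07%, 4.60%, 8.23% and 11.6%, and the levels 19.2, 13.7, 14.9 and 11 CPM with overlapping intervals. Scrublet called 8 T-like cells doublets, and 0 of them held a calprotectin UMI (interval 0 to 36.9%). That interval holds the 6.89% of the other T-like cells, so 8 cells are too few to tell the shares apart.

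**Figure D5:**
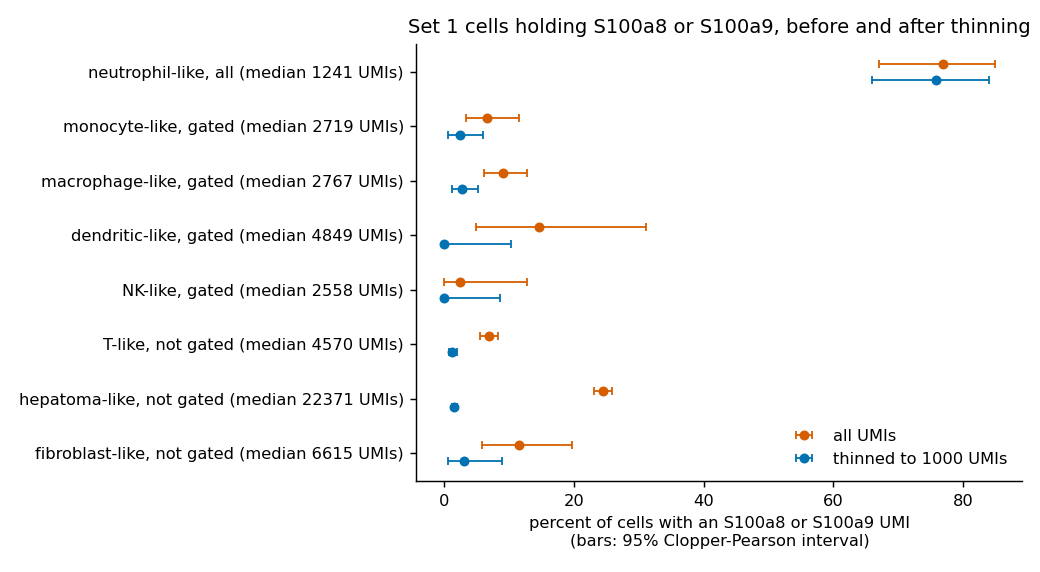
Percent of set 1 cells with an S100a8 or S100a9 UMI (x axis) in 8 classes (y axis, with the median UMIs per cell), for all UMIs and after thinning each cell to 1000 UMIs, with exact 95% binomial intervals. Hepatoma-like cells fall from 24.5% to 1.59% and T-like cells from 6.89% to 1.30%, while neutrophil-like cells go from 76.8% to 75.8%. Ungated monocyte-like cells are not shown.

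The proportions among the genes were set beside those in neutrophil-like cells. S100a8 had 32.9 UMIs for each 100 of S100a9 in T-like cells (20.3 to 51.8), 34.2 in hepatoma-like cells (30.2 to 38.7) and 30.3 in the 95 neutrophil-like cells (27.7 to 33.1), and these intervals overlap. G0s2 had 62.7 (56.8 to 69.3) in hepatoma-like and 54.4 (36.6 to 79.9) in T-like cells, against 22.8 (20.6 to 25.1) in neutrophil-like cells. Csf3r had 18.0 (15.3 to 21.1), 13.9 (6.68 to 26.3) and 9.26 (7.97 to 10.7) in the same order. Retnlg ran the other way, with 2.54 (1.65 to 3.74) in hepatoma-like and 5.05 (4.12 to 6.12) in neutrophil-like cells. Cxcr2 had 10.1 (8.21 to 12.4) in hepatoma-like and 6.39 (5.34 to 7.59) in neutrophil-like cells. With the granule-rich cells kept, all 98 neutrophil-like cells had 37.8 (35.5 to 40.2) for S100a8, 13.2 (12 to 14.5) for G0s2, 5.35 (4.62 to 6.17) for Csf3r, 3.72 (3.12 to 4.4) for Cxcr2 and 2.92 (2.39 to 3.53) for Retnlg. This comparison was added after the data were seen. Under both choices of neutrophil-like cells, the intervals of G0s2 in both classes and of Csf3r and Cxcr2 in hepatoma-like cells did not overlap those of neutrophil-like cells, and those of S100a8 did. The interval of Retnlg in hepatoma-like cells overlapped once the granule-rich cells were kept, while those of Csf3r and Cxcr2 in T-like cells overlapped when they were left out and not when they were kept. The source of these UMIs was not tested.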

How the data were processed

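Values came from 1 deposited table of 2000 genes and 53528 cells on the natural log scale. Per the submitters' processing notes, STAR 2.7.2b and the builds GRCh38 and mm10 were used; per the labels' protocols, libraries were made with the DNBelab C kit. The steps from counts to the table are not given in the sources used here. No label ties any of the 53528 columns to a sample. The cell names are serial, not barcodes: 12741 of 22421 names without the set number occur in more than 1 set.

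The 6 genes, lists and markers were chosen with earlier results of these data known. Besides the 6 genes, the 10 most like them are named. So are the 2 to 4 genes of each list with most UMIs in neutrophil-like cells. Granule-rich cells, further granule genes, Cd36, Csf2, Csf3, Il6, single ligands and single markers were named after their values were seen. In set 1 the UMI total of each cell was recovered for 100% of cells, and 100% of nonzero values were whole counts within 0.01. The table's genes hold 15% of all UMIs. CPM are summed UMIs per 1000000 UMIs of the cells' totals. Ratios have exact conditional Poisson intervals, and log2 ratios a pseudocount of 1 CPM.

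Cells were scaled (clipped at 10 SD), reduced to 30 components, joined to 20 neighbours and clustered with Leiden (leidenalg 0.10.2, resolution 1). A cluster took the class whose markers differed most, with at least 3 raised by more than 0.1. It stayed unnamed where another class led its 10 top genes, or where it was shallow with none of its markers among them. Ranking by fold was chosen after clusters had been seen. Scrublet (scanpy 1.11.5) called 91 doublets, 0.971% of set 1, and 0 among neutrophil-like cells; they were left out of counts. Recovery of totals was tested on simulated data.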

Additional observations from a re-analysis of the deposited data

How the results depend on the processing

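The neutrophil-like share of gated cells stayed between 4.88% and 5.69% with gates at 0.5 or 1.2, resolutions 0.5 or 2, and clusters of all cells. It was 2.53% when cells were taken by a marker gate instead, and 6.39% without non-myeloid classes. The median log2 ratio of the 6 genes moved beyond its interval with the marker gate (6.27), as a mean over cells (7.25), with a pseudocount of 10 CPM (6.12), without granule-rich cells (8.59) and with clusters of all cells (8.15). All 72 alternatives of single genes' ratios were positive, from 3.63 to 11.34. The T-like share with a calprotectin UMI was 1.30% after thinning and 0.459% at 2 or more UMIs. The hepatoma-like share was 1.59% after thinning, 5.53% at 2 or more UMIs and 20.7% with classes by marker values. Csf3r with Cxcr2 was found in 38.8% of gated neutrophil-like cells at 2 or more UMIs and in 42.2% with clusters of all cells. The count of 6 genes higher in every set did not change under its 6 alternatives. Alternatives on clusters of all cells, non-myeloid classes and granule-rich cells were chosen after seeing the data. Thinning and the higher UMI minimum leave fewer UMIs by construction; for the other shifts the cause was not tested.

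No paired analysis was possible because no set is tied to a group or replicate. Depth limits the neutrophil-like cells most: 49 gated cells of set 1 hold 73884 UMIs, so a gene with 0 UMIs may be at up to 40.6 CPM. With 1 pooled sample, no spread between animals is known.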
